A study of Homo sapiens with 4 samples.

Results

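The comparison set the engineered prostate cancer tissue (EPCaT) made with 3% PEGDA against the one made with 2% PEGDA, 1 RNA-seq library a side. It covered every gene with at least 1 CPM (counts per 1000000, here of the plain library total) in either library, which took 14238 of the 17791 genes in the deposited table. An EPCaT holds PC-3 cells, a prostate cancer line from a bone metastasis, and BJ-5ta cells, foreskin fibroblasts immortalised with telomerase, inside a gel of poly(ethylene glycol) coupled to fibrinogen (PF). Both tissues were seeded with 5 PC-3 cells to 1 BJ-5ta cell at 20000000 cells per mL, kept in PC-3 medium without any drug and taken on day 15. The RNA came from more than 2 EPCaTs per gel, and the sources used here do not say how these were combined into 1 library. Excess poly(ethylene glycol) diacrylate (PEGDA), which was added to tune the mechanics of the gel, made up 8 parts to 92 parts PF by volume in PF+2%PEGDA and 12 parts to 88 in PF+3%PEGDA. The PF library (no added PEGDA) and a 2D coculture of the same lines entered only the scaling and appear beside some results as further levels. PF had the same cell ratio, cell density and day as the compared pair. For 2D the labels give no cell ratio, density or day, so its mix of lines may differ. Neither line is described as more than 1 culture, so the tissues model 1 cancer line and 1 fibroblast line.

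Each side is a single library, so the difference has no replicate check and no p-value is given. Levels are CPM, counts per 1000000 of the library size after TMM scaling (trimmed mean of M-values). A gene is called higher or lower where its log2 ratio, 3% over 2%, passed 2-fold and the exact 95% Clopper-Pearson interval of the ratio excluded equality. The intervals cover counting error only, not the spread between tissues.

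Proteins of mitosis are made in a burst late in the cell cycle. Many of their genes share promoter elements: the cell cycle homology region, with the core TTTGAA, and CCAAT boxes. The first of these helps to hold such genes silent in resting cells. Fibrillar collagens are laid down mainly by fibroblasts and set much of the stiffness of tumour stroma. Interferon-stimulated genes are antiviral effectors that cells switch on through a response element with repeated GAAA cores. Cancer cells can keep them on for long periods without infection.

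The 150 bases upstream of the RefSeq start of 8 genes are shown first, because the division genes and the interferon-stimulated genes were the lists whose members lay furthest to one side. For the division genes KIF20A, PLK1, PRC1 and ASPM, all called lower, capitals mark TTTGAA on either strand.
KIF20A (chr5:138178962-138179111, plus strand): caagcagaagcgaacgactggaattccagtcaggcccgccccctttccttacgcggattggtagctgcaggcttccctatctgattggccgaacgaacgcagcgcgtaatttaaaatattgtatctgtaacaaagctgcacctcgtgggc
PLK1 (chr16:23678739-23678888, plus strand): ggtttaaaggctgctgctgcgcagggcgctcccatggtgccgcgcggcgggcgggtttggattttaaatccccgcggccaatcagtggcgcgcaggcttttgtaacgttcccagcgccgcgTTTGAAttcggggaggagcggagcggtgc
PRC1 (chr15:90994536-90994685, minus strand): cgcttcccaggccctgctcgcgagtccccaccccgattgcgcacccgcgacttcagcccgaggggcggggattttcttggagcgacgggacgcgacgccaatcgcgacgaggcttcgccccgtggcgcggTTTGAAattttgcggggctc
ASPM (chr1:197146670-197146819, minus strand): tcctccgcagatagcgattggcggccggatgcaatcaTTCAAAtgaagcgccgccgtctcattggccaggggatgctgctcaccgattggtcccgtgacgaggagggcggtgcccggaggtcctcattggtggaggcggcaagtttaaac
In PLK1 and PRC1 the match starts at position -29 and -20 from the RefSeq start, in ASPM at -113 on the other strand, and KIF20A holds none in this window. For 4 interferon-stimulated genes, none of which passed the 2-fold rule, capitals mark GAAANNGAA (N is any base) on either strand.
IFITM1 (chr11:313890-314039, plus strand): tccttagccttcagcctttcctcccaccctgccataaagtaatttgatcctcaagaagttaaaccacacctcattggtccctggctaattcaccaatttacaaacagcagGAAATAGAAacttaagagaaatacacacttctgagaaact
IFI6 (chr1:27672193-27672342, minus strand): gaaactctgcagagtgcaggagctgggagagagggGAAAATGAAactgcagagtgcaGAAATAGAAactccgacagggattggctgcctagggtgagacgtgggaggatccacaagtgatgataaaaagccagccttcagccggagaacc
IFIT1 (chr10:89392473-89392622, plus strand): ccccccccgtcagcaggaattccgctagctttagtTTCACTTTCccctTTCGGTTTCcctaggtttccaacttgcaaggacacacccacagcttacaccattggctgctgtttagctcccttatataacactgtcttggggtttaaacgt
BST2 (chr19:17405631-17405780, minus strand): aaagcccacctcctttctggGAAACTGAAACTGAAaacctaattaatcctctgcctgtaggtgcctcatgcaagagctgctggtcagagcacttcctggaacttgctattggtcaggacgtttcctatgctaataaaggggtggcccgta
IFI6, IFIT1 and BST2 hold 2 matches each, which overlap in BST2, and IFITM1 holds 1.

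Over whole lists, TTTGAA stood in 13 of the 25 G2 and M phase promoters in the RefSeq table (52%), in 3.84% of the 11056 promoters of genes in the comparison and in 7.44% of all 27305 promoters. CCAAT stood in 19 of the same 25 (76%), against 27.3% of the genes in the comparison and 24.4% of all promoters. GAAANNGAA stood in 11 of 16 promoters of interferon-stimulated genes (68.8%), against 3.09% and 4.09%, and in 1 of the 25 G2 and M phase promoters. The search for GAAANNGAA was chosen after the levels had been seen. These are matches of letters in a window of 150 bases on both strands, and binding was not measured.

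The libraries were close for most genes. The median log2 ratio was -0.00, 7115 genes lay above 0 and 7123 below, and 89.1% of genes were within 1.5-fold. By the 2-fold rule 245 genes were higher with 3% PEGDA (1.72%) and 319 lower (2.24%). A 1.5-fold rule called 494 higher (3.47%) and 693 lower (4.87%). Most of the 2-fold calls were faint genes: 468 of the 564 were under 5 CPM in the higher library. Of 11784 genes with at least 5 CPM there, 25 were higher (0.212%) and 71 lower (0.603%), so the calls leaned towards lower at measurable levels. At 50 CPM or more, 5 entries were higher and 1 gene was lower, of 4966. The 5 were the copies RNA18SN1 to RNA18SN5 of 18S ribosomal RNA, which carry identical values, and the 1 was COL1A2. Total counts ran from 13760301 to 15687894 over the 4 libraries, the lowest in PF+3%PEGDA, where 1 count was worth 0.0734 CPM against 0.0644 in PF+2%PEGDA.

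**Figure D1:**
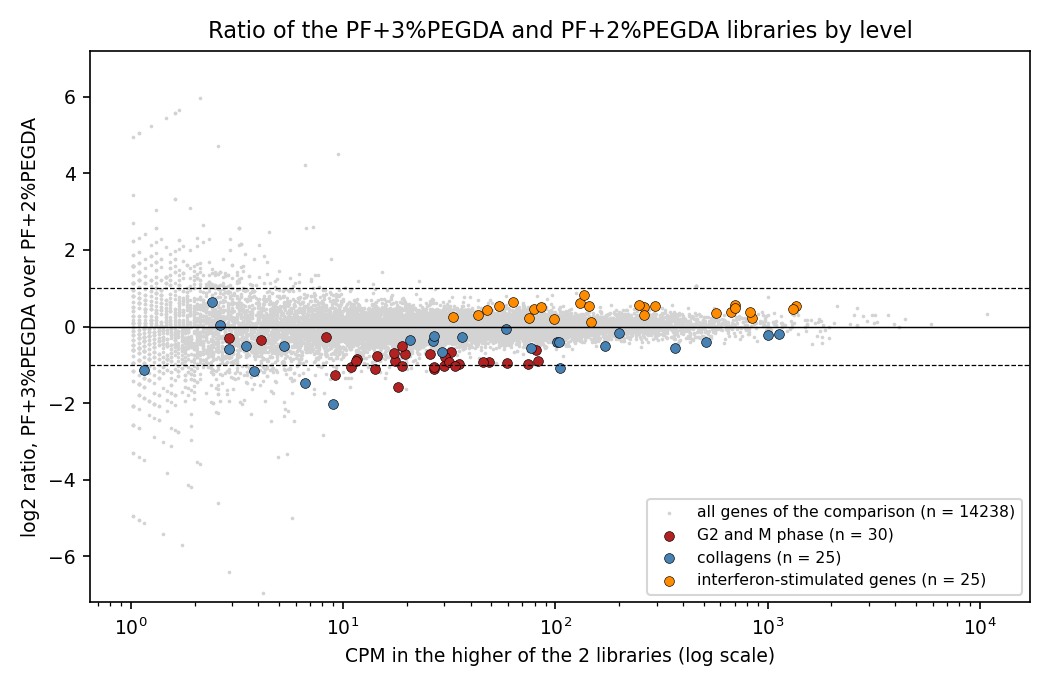
Log2 ratio of PF+3%PEGDA over PF+2%PEGDA (vertical axis) against the CPM of a gene in the higher library (horizontal, log scale), 1 point per gene, with 3 lists coloured and 2-fold marked by dashed lines. The cloud narrows as the level climbs, all 30 G2 and M phase genes lie below 0 and all 25 interferon-stimulated genes above it.

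Among the gene lists, those of cell division stood lowest. All 30 measured genes of G2 and M phase were below 0, with log2 ratios from -1.58 to -0.27 and a median of -0.91, against -0.00 over all genes. The interval excluded equality for 27 of the 30. By the 2-fold rule 9 were lower and 0 higher, where 2.24% and 1.72% of all genes were. By the 1.5-fold rule 26 were lower, where 4.87% of all genes were. Their summed level was 863 CPM with 2% PEGDA and 470 with 3%, beside 1189 in PF and 322 in 2D. In all 30 the PF+3%PEGDA library was the lowest EPCaT, and in 3 it was also below 2D. Fewer dividing cells and less of these RNAs per cell cannot be told apart in bulk RNA.

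KIF20A, a kinesin motor that works at the midzone during cytokinesis (chr5:138178719-138187715, GRCh38), stood furthest below equality in this list. It measured 18.1 CPM with 2% PEGDA and 6.02 with 3%, beside 19.5 in PF and 4.29 in 2D, which was 3.00-fold lower (interval 2.34 to 3.90). PF and PF+2%PEGDA were close for this gene, and PF+3%PEGDA was nearer to 2D. PLK1, the polo-like kinase that drives entry into and exit from mitosis (chr16:23677656-23690367), measured 26.9 and 12.5 CPM with 2% and 3% PEGDA, beside 25.1 in PF and 11.2 in 2D (2.15-fold lower, interval 1.80 to 2.59). ASPM, which organises spindle poles (chr1:197084128-197146694), measured 9.21 and 3.82 CPM, beside 19.3 in PF and 3.47 in 2D (2.40-fold lower, interval 1.75 to 3.38). For ASPM the PF library stood well above both tissues with PEGDA. PRC1, which bundles the microtubules of the central spindle, measured 33.8 and 16.4 CPM (2.05-fold lower, interval 1.75 to 2.41), though 50.7% of its 50-mers also occur in another gene and PRC1-AS1 overlaps it.

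MKI67, which encodes the proliferation marker Ki-67 (chr10:128096659-128126385), missed the 2-fold rule with 49.03 CPM at 2% PEGDA and 25.9 at 3% (1.89-fold lower, interval 1.67 to 2.15). It measured 119 CPM in PF and 7.56 in 2D, so its 4 levels were all apart. Several other members stood just inside 2-fold and were chosen after their values were seen. CDK1, the kinase that starts mitosis, measured 83.4 and 44.3 CPM (1.88-fold lower), and TOP2A, the topoisomerase that untangles sister chromatids, 59.5 and 30.7 CPM (1.94-fold lower). TPX2, an activator of Aurora A on the spindle, was 1.97-fold lower and ANLN, a scaffold of the cleavage furrow, 1.99-fold. FOXM1, a transcription factor of late cell cycle genes that is not in the list and was also chosen after its values were seen, measured 52.9 and 27.5 CPM (1.92-fold lower, interval 1.70 to 2.18).

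The members nearest to equality were CENPA, the histone that marks centromeres, at 8.31 and 6.90 CPM, CDC25C, the phosphatase that activates CDK1, at 2.90 and 2.35 CPM, and the kinesin CENPE at 4.12 and 3.23 CPM. All 3 were under 10 CPM, and their intervals included equality. They were chosen after their values were seen.

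Genes of S phase and DNA replication were lower by less. Of 30, 29 were below 0 with a median of -0.49. As lower, 2 passed the 2-fold rule and 8 the 1.5-fold rule, where 2.24% and 4.87% of all genes did. None was higher by either rule. The summed level was 1639 CPM in PF, 1348 with 2% PEGDA, 1028 with 3% and 578 in 2D. CLSPN, claspin of the replication checkpoint, measured 9.99 CPM with 2% PEGDA and 4.40 with 3% (2.26-fold lower, interval 1.67 to 3.11). MCM10, which loads factors at firing origins, measured 6.18 and 2.57 CPM (2.39-fold lower, interval 1.62 to 3.66). At the other end stood PCNA, the sliding clamp of DNA polymerase, at 124 and 118 CPM (interval of the fold 0.982 to 1.12), and CCNE1, cyclin E1, at 1.87 and 1.98 CPM, both chosen after their values were seen. The 8 measured replication-dependent histone genes did not lean the same way, with 5 above 0 and a median of 0.07.

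**Figure D2:**
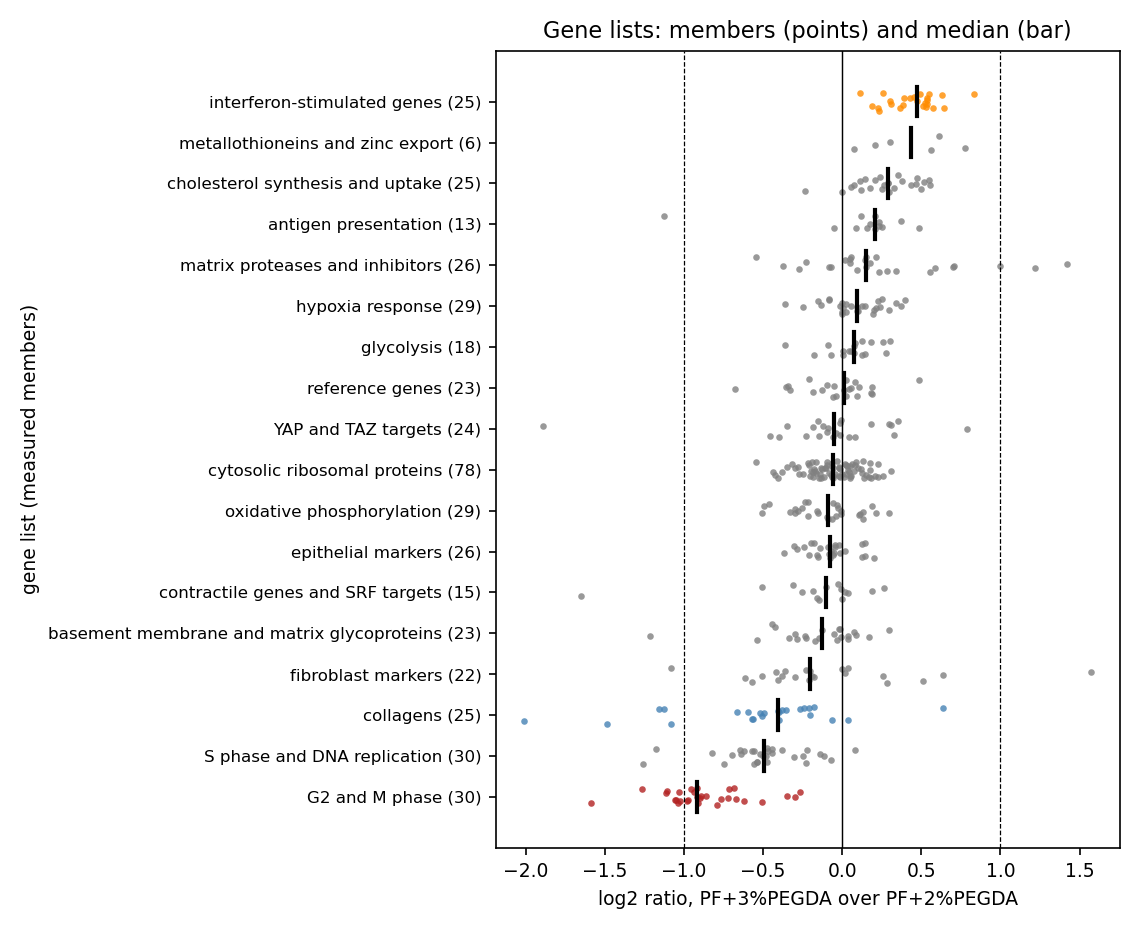
Log2 ratio of PF+3%PEGDA over PF+2%PEGDA (horizontal axis) for the measured members (points) of 18 of the gene lists, with the median of each list as a black bar and 2-fold marked by dashed lines. G2 and M phase has the lowest median, -0.91, and interferon-stimulated genes the highest, 0.47, with most other lists centred near 0.

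Leaving out entries that share sequence with another gene (at least 50% of 50-mers shared or of exon bases overlapped, or not found in GENCODE 29), 10 genes with at least 5 CPM were higher and 58 lower. Of these 58, 10 belonged to a cell cycle list (17.2%), beside 55 of the 11167 genes that could have been called this way (0.493%). The lists were chosen with earlier results of these data known, so the gap between these shares is no independent support. Lower genes outside the lists with known roles in division, chosen after their values were seen, included KIF4A (24.6 and 11.01 CPM), KIFC1 (26.2 and 12.3 CPM), HJURP, the chaperone of CENPA (21.002 and 9.98 CPM), ESPL1, the separase that releases sister chromatids (16.5 and 7.85 CPM), and SKA3 of the outer kinetochore (7.34 and 2.35 CPM). Also chosen after their values were seen, BRCA2 of homologous recombination measured 7.41 and 3.08 CPM (2.39-fold lower, interval 1.67 to 3.51) and the checkpoint kinase CHEK2 10.6 and 4.18 CPM (2.51-fold lower, interval 1.86 to 3.48).

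Collagens also leaned lower with 3% PEGDA. Of 25, 23 were below 0, the median log2 ratio was -0.41, and 18 had an interval below equality and none above. By the 2-fold rule 4 were lower and 0 higher, where 2.24% and 1.72% of all genes were. COL1A2, a chain of type I collagen (chr7:94394561-94431232), measured 105 CPM with 2% PEGDA and 49.6 with 3%, beside 122 in PF and 871 in 2D (2.12-fold lower, interval 1.94 to 2.32). It was the only gene at 50 CPM or more that the rule called lower. COL5A3, a type V chain (chr19:9959561-10010471), measured 8.95 and 2.20 CPM, beside 6.00 in PF and 52.998 in 2D (4.02-fold lower, interval 2.73 to 6.26), so the 2% library was the highest EPCaT. COL8A1, of the short-chain type VIII (chr3:99638475-99799226), measured 6.64 and 2.35 CPM (2.80-fold lower, interval 1.88 to 4.34), and COL27A1 3.80 and 1.69 CPM (2.23-fold lower, interval 1.37 to 3.82). COL27A1 was faint: the rule called 14.4% of all genes with 2 to 5 CPM in the higher library.

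The abundant collagens differed less. COL1A1, the partner chain of COL1A2 (chr17:50183289-50201632), measured 365 and 246 CPM, beside 307 in PF and 1742 in 2D (1.48-fold lower, interval 1.42 to 1.55). The 2 chains of type I collagen therefore did not stand in the same ratio. COL6A1 and COL6A2, chains of the microfibrillar type VI and chosen after their values were seen, measured 1135 and 986 CPM and 1005 and 870 CPM. COL9A3 and COL16A1, both under 3 CPM, were the members above 0, with intervals that included equality.

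**Figure D3:**
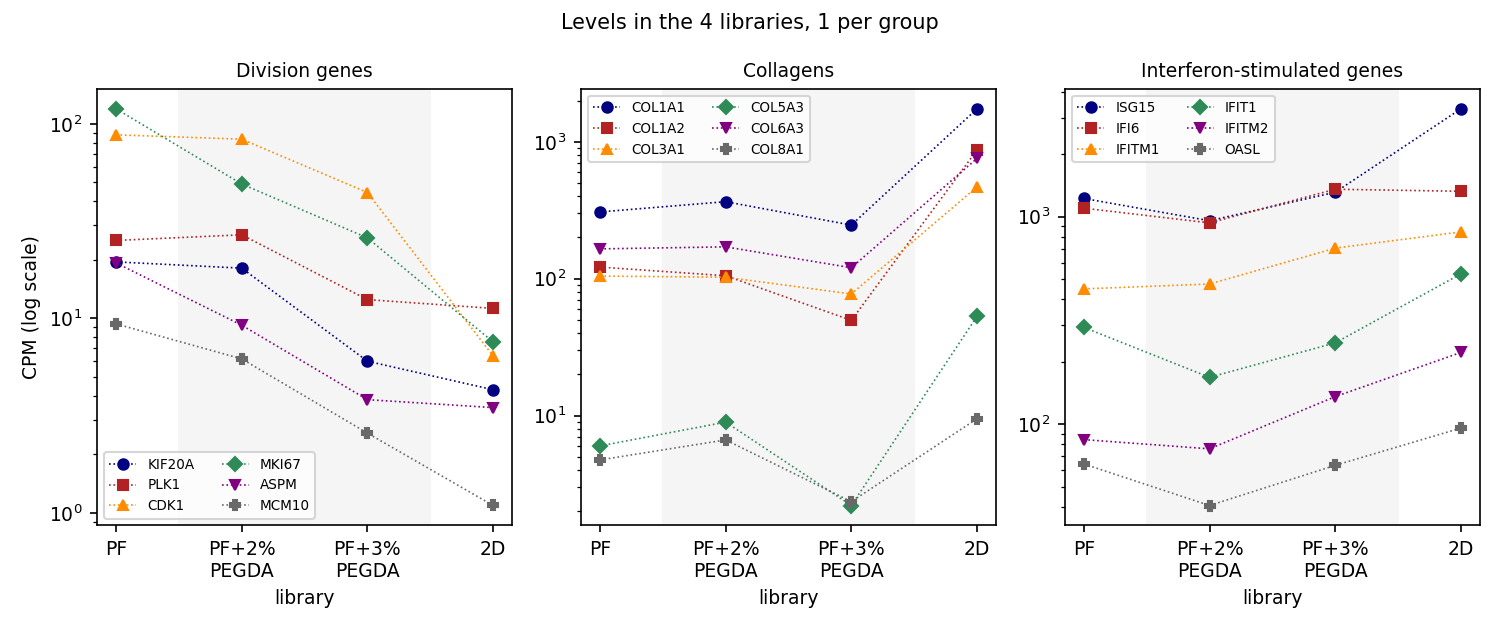
CPM (vertical axis, log scale) of 6 genes from each of 3 groups in the 4 libraries (horizontal axis), with the compared pair shaded. Dotted lines join values of the same gene and stand for no order between EPCaTs and 2D. The division genes are lower in PF+3%PEGDA than in PF+2%PEGDA, the collagens are too with 2D far above, and the interferon-stimulated genes are higher in PF+3%PEGDA than in PF+2%PEGDA.

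Of 22 fibroblast markers, 8 are collagens, and the other 14 did not lean the same way. Of those 14, 8 were above 0 and 6 below, with a median of 0.01, and 4 had an interval above equality and 2 below it. None of them was called lower, and TBX15 was called higher at 0.322 and 1.03 CPM. Their sum was 829 CPM with 2% PEGDA and 747 with 3%, beside 522 in PF and 1219 in 2D. With the collagens the whole list had a median of -0.21, and its sum was 3363 CPM in PF, 3940 with 2% PEGDA, 3295 with 3% and 10455 in 2D. Chosen after their values were seen, PDGFRB, the receptor for platelet-derived growth factor B on mesenchymal cells, measured 16.4 and 10.7 CPM (1.53-fold lower, interval 1.25 to 1.89). LUM, the collagen-binding proteoglycan lumican, measured 12.9 and 18.3 CPM (1.42-fold in the other direction, interval 1.18 to 1.72), and PRRX1, a mesenchymal transcription factor, 6.83 and 10.6 CPM (1.56-fold, interval 1.20 to 2.02).

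CTNNA1, alpha-catenin, is homozygously deleted in PC-3 and so offered a further look at the fibroblasts. It measured 6.18 and 8.29 CPM with 2% and 3% PEGDA, beside 5.40 in PF and 33.1 in 2D (1.34-fold, interval 1.01 to 1.78). It stood above equality while COL1A1, COL1A2 and PDGFRB stood below it. The part of the share of fibroblasts in the collagen values was not tested.

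Epithelial markers stood near equality. Of 26, none passed the 1.5-fold rule, 20 were below 0, and the median was -0.07. The keratin gene KRT19 measured 1865 and 1768 CPM, KRT8 979 and 921 CPM and CDH1, which encodes E-cadherin, 392 and 377 CPM. Both cell types of the label were thus seen through their markers in both libraries. Of 17 endothelial and blood cell markers 8 were measured, led by KDR (185 and 227 CPM) and PECAM1 (82.3 and 86.4 CPM), and TIE1 was called higher at 0.58 and 1.61 CPM.

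Interferon-stimulated genes lay on the other side. All 25 were above 0, between 0.11 and 0.83, with a median of 0.47 and an interval above equality in every one. The sizes were modest: none passed the 2-fold rule and 3 passed the 1.5-fold rule (IFITM2, OASL and IFIT2), where 3.47% of all genes did. ISG15, a ubiquitin-like modifier (chr1:1001138-1014540), measured 957 CPM with 2% PEGDA and 1312 with 3%, beside 1224 in PF and 3309 in 2D (1.37-fold, interval 1.34 to 1.40). IFI6, an interferon-inducible mitochondrial protein (chr1:27666061-27672218), measured 934 and 1356 CPM, beside 1099 in PF and 1326 in 2D (1.45-fold, interval 1.42 to 1.48). OAS3, a sensor of double-stranded RNA, measured 717 and 844 CPM.

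The PF+2%PEGDA library was the low one for this list. Its sum was 9267 CPM in PF, 6776 with 2% PEGDA, 9196 with 3% and 14016 in 2D, and the 2% library was the lowest of the 3 EPCaTs for 22 of the 25 genes. PF+3%PEGDA stood above PF for 7 of them and below 2D for 20. IFITM2, a membrane protein that blocks viral entry, was chosen after its values were seen and measured 84.4 CPM in PF, 76.2 with 2% PEGDA, 136 with 3% and 222 in 2D (1.78-fold, interval 1.66 to 1.92), but 34.1% of its 50-mers occur in another gene. Genes of the same kind outside the list, chosen after their values were seen, were RSAD2, which makes an antiviral nucleotide (54.5 and 96.1 CPM), its neighbour CMPK2 (56.0 and 91.7 CPM), and IDO1, which degrades tryptophan (19.8 and 31.5 CPM).

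Antigen presentation genes were nearer to equality. Of 13, 11 were above 0 with a median of 0.21, and none passed the 1.5-fold rule. B2M, the light chain of MHC class I (chr15:44711487-44718877), measured 1874 CPM with 2% PEGDA and 2627 with 3%, beside 1194 in PF and 1455 in 2D (1.40-fold, interval 1.38 to 1.42). The heavy chains named here were closer, with HLA-B at 501 and 559 CPM and HLA-C at 871 and 945 CPM.

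Cholesterol synthesis and uptake genes leaned higher by a small amount. Of 25, 24 were above 0, 21 had an interval above equality and 1 below, the median was 0.29, and none passed the 1.5-fold rule. The list summed to 3114 CPM in PF, 4180 with 2% PEGDA, 5058 with 3% and 2636 in 2D, and for 24 genes PF+3%PEGDA was the highest EPCaT. HMGCS1, which makes HMG-CoA (chr5:43289395-43313512), measured 116 and 163 CPM, beside 97.1 in PF and 47.7 in 2D (1.41-fold, interval 1.33 to 1.50). DHCR7, of the last steps of synthesis, measured 363 and 443 CPM. SCD, a desaturase of fatty acids, measured 1460 and 2123 CPM (1.45-fold, interval 1.43 to 1.48), while its list of 24 fatty acid and lipid storage genes had a median of 0.08. The cholesterol gene below 0 was PMVK, phosphomevalonate kinase, chosen after its values were seen, at 29.6 and 25.2 CPM.

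All 6 measured genes of metallothioneins and zinc export were above 0, with a median of 0.43. MT2A, the most abundant metallothionein (chr16:56608199-56609497), measured 48.5 CPM in PF, 124 with 2% PEGDA, 184 with 3% and 567 in 2D (1.48-fold, interval 1.39 to 1.57). MT1X measured 21.8 and 37.4 CPM and passed the 1.5-fold rule, as did MT1F. The iron-storage gene FTH1 measured 8663 and 10819 CPM (1.25-fold, interval 1.24 to 1.26) and its partner chain FTL 1048 and 1371 CPM (1.31-fold, interval 1.28 to 1.34).

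Among matrix proteases and their inhibitors, MMP3 stood apart. This gene encodes stromelysin-1, which cleaves proteoglycans and activates collagenases (chr11:102835801-102843803). It measured 5.67 CPM with 2% PEGDA and 15.3 with 3%, beside 5.10 in PF and 2.79 in 2D (2.68-fold higher, interval 2.09 to 3.49). All 3 other libraries lay below 6 CPM. Of the 26 genes in the list, 20 were above 0 with a median of 0.15. MMP3, CTSK and SERPINB2 passed the 1.5-fold rule as higher, where 3.47% of all genes did. CTSK, a collagen-cutting cathepsin, measured 11.9 and 19.4 CPM and SERPINB2, an inhibitor of plasminogen activators, 5.09 and 10.2 CPM, both chosen after their values were seen. The abundant inhibitors TIMP1 (429 and 443 CPM) and TIMP2 (715 and 795 CPM) and the protease CTSD (774 and 785 CPM) differed by less than 1.5-fold, and PLAU, urokinase, lay below equality at 384 and 296 CPM (1.30-fold, interval 1.25 to 1.35).

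Calls at 5 CPM or more with little shared sequence also included genes outside these groups. Higher with 3% PEGDA were SETDB2, a histone methyltransferase homologue (2.96 and 7.63 CPM), PTPRD, a receptor phosphatase (2.38 and 6.24 CPM), and, chosen after their values were seen, SRPX (6.31 and 13.8 CPM) and GREM1, a secreted antagonist of BMP ligands (3.09 and 7.04 CPM). Lower were FGB, the beta chain of fibrinogen (5.28 and 1.32 CPM, 3.92-fold, interval 2.38 to 7.08), CRIP1 (8.12 and 2.42 CPM), TRABD2B, a Wnt-cleaving protease (10.8 and 3.60 CPM), and FAM83A (5.73 and 1.69 CPM). PCDHGC3, at 19.8 and 6.38 CPM, belongs to a protocadherin cluster whose genes share their last exons, so its reads may be split between members.

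Lists of hypoxia, energy metabolism and mechanical response stood near equality. Of 29 hypoxia genes, 20 were above 0 with a median of 0.10 and none passed the 1.5-fold rule. VEGFA, the angiogenic factor, measured 145 and 160 CPM, CA9, a carbonic anhydrase, 8.44 and 9.02 CPM, and NDRG1 5642 and 5869 CPM. The 18 glycolysis genes had a median of 0.07 and the 29 nuclear genes of oxidative phosphorylation one of -0.09, again with none past 1.5-fold. Of 24 YAP and TAZ targets, 16 were below 0 with a median of -0.05. CCN2, the best known of these targets, measured 108 and 79.0 CPM (1.37-fold below equality, interval 1.27 to 1.48) and IGFBP3 632 and 809 CPM, so these members went opposite ways. FOXF2, called lower, was faint at 2.00 and 0.514 CPM.

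The 15 contractile and SRF target genes had a median of -0.10 and 1 call, ACTA2 (smooth muscle actin, 2.83 and 0.88 CPM, 3.14-fold lower, interval 1.67 to 6.70). TAGLN, another contractile marker, stood at 6.51 and 6.38 CPM, and both genes were chosen after their values were seen. VIM, the mesenchymal intermediate filament, measured 1135 and 1394 CPM (1.23-fold, interval 1.20 to 1.25), CD44, a hyaluronan receptor, 243 and 275 CPM, KRT18 635 and 604 CPM and ACTB 3898 and 4437 CPM. The 23 reference genes had a median of 0.01 and the 78 cytosolic ribosomal protein genes one of -0.06. Over the 49 lists with a measured member, 31 medians were within 0.1 of 0, 11 were above and 7 below.

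Many of the largest ratios belonged to entries that share sequence with another entry. Of the 15 genes ranked highest at 5 CPM or more, 4 were found in GENCODE and had little shared sequence, and of the 15 ranked lowest, 7. Among the 4 was FTH1P3 (1.16 and 7.19 CPM), a processed pseudogene of the far more abundant FTH1 (8663 and 10819 CPM). As 18.9% of the FTH1P3 50-mers occur in another gene, some of its reads may belong elsewhere. SFT2D3 headed the list with 6 counts against 129 (0.387 and 9.46 CPM, 22.6-fold, interval 10.9 to 68.0), but its exons lie entirely inside those of WDR33 on the other strand (chr2:127701508-127705242). SFT2D3 and WDR33 together measured 94.4 and 93.5 CPM. DNAAF4-CCPG1, a read-through entry at 5.73 and 0.147 CPM, headed the lower side, and the 3 entries of that locus together measured 63.5 and 77.5 CPM. Over 10 such groups the sums differed by 1.01- to 1.22-fold, though an entry that is small beside its partner weighs little in its sum. These groups were selected and do not cover every such entry. Among the ranked entries, FAM72D, SMIM11B and BORCS8-MEF2B, for example, were not summed with their partners. Entries that share sequence or were not found in GENCODE made up 15 of the 25 higher calls and 13 of the 71 lower calls at 5 CPM or more. They made up 5.24% of all genes at that level, and their ratios are uncertain as differences of a single gene. The higher calls among them included the copies RNA18SN1 to RNA18SN5, which were not found in GENCODE. Each copy stood at 2.07-fold with identical values, so summing the copies would not bring them to equality. LOC727751 was not found there either, and its shared sequence was not measured.

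**Figure D4:**
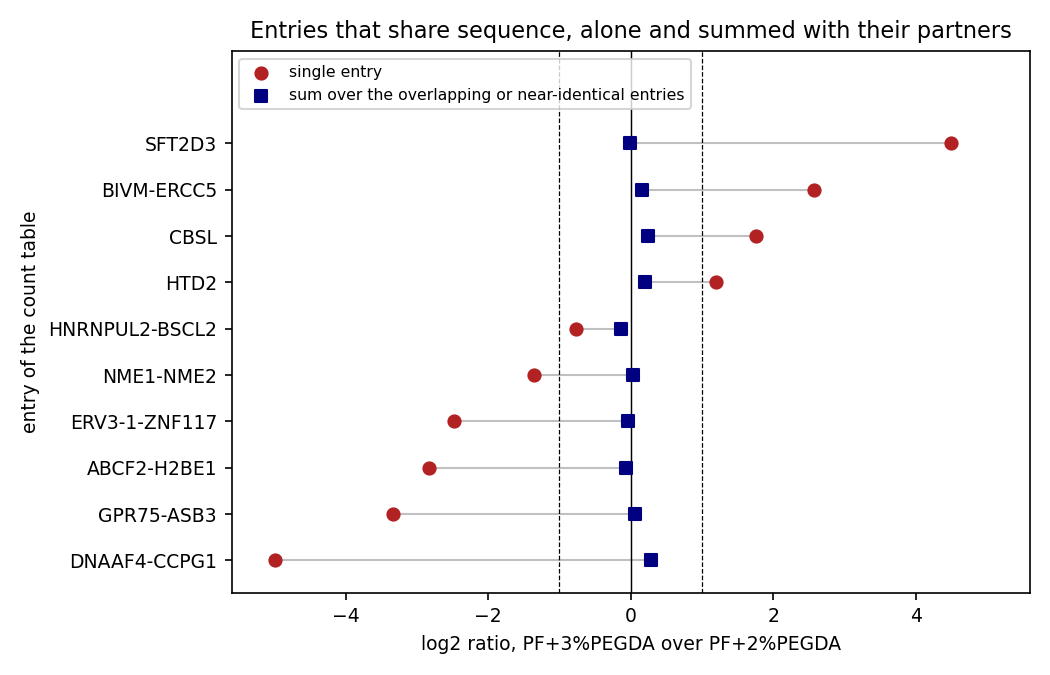
Log2 ratio of PF+3%PEGDA over PF+2%PEGDA (horizontal axis) for 10 entries of the count table alone (circles) and for the sum of each with the entries that overlap or nearly copy it (squares), with 2-fold marked by dashed lines. Single entries reach 22.6-fold higher and 31.9-fold lower, while all 10 sums stay within 1.22-fold of equality.

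The ratio moved with GC content by a small amount. For genes at 10 CPM or more, the median log2 ratio went from 0.09 in the 20% of genes with the lowest GC content to -0.07 in the 20% with the highest, and stayed between -0.00 and 0.02 over the same kind of classes by transcript length. With that trend removed, the list medians were -0.93 for G2 and M phase, -0.36 for collagens and 0.46 for interferon-stimulated genes. Each copy of 18S ribosomal RNA measured 222 CPM with 2% PEGDA and 458 with 3%, beside 757 in PF and 148 in 2D (2.07-fold, interval 1.98 to 2.15). The nuclear RNA MALAT1, chosen after its values were seen, measured 47.4 and 82.4 CPM beside 369 in PF, whereas NEAT1 measured 267 and 252 CPM beside 1565 in PF. The compared pair thus lay closer together than either did to PF for both RNAs, and the part of these RNAs in the gene list values was not tested.

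**Figure D5:**
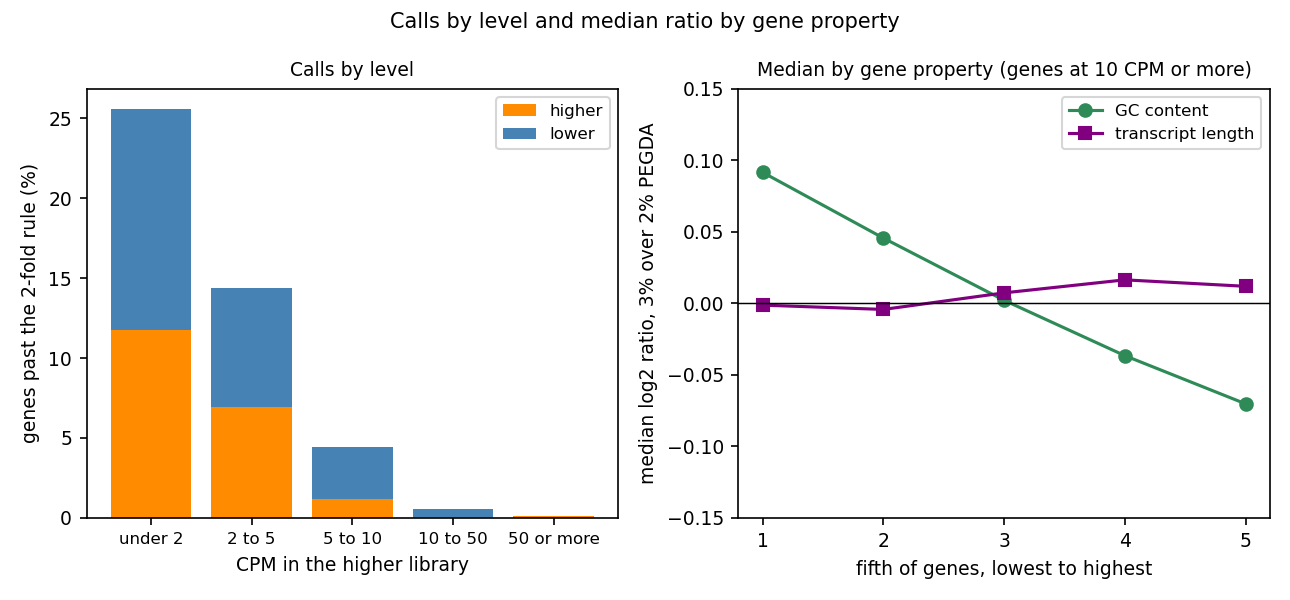
Left, share of genes past the 2-fold rule (percent, vertical axis) by CPM in the higher library, with higher and lower calls stacked; it drops from 25.6% under 2 CPM to 0.121% at 50 CPM or more. Right, median log2 ratio (vertical axis) by class (5 of equal size) of GC content and of transcript length for genes at 10 CPM or more; it runs from 0.09 to -0.07 over GC.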

How the data were processed

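The authors deposited expected counts (estimated reads per gene) for 4 libraries, 1 per group. Per the submitters' processing notes the tools were FastQC, STAR and Partek and the build was hg38; versions, annotation and counting method are not given in the sources used here. Per the labels' protocols, RNA was purified on columns and libraries made with a TruSeq kit. Between 18.2% and 19.9% of values were not whole (tolerance 0.01), so values were rounded. Totals were 15687894 (PF), 15333450 (PF+2%PEGDA), 13760301 (PF+3%PEGDA) and 15641804 (2D).

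Libraries were scaled by TMM over all 4 in edgeR 4.0.16 (R 4.3.3). Log2 ratios used a prior count of 0.5. All else ran in Python 3.11.15 (pandas 2.3.3, scipy 1.17.1, matplotlib 3.10.9, numpy 2.4.6), and the call rule was checked on simulated counts. Symbols were matched to GENCODE 29 (13907 of 14238 genes), which gave coordinates (GRCh38), GC, length and shared 50-mers. Promoters come from RefSeq (GRCh38.p14).

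Genes were named by rule: at 5 CPM or more, the 15 highest and 15 lowest by the interval bound nearest to equality, and from each list up to 4 called members or, with fewer than 2 called, the 4 most abundant. A few genes, such as MKI67, COL1A1 and CTNNA1, were always named. All other genes named were chosen after their values were seen. The genes compared, the 50 gene lists and these rules were chosen with earlier results of these data known. Of the lists, the 13 mitochondrially encoded genes had no member in the table. The alternatives tried were total counts, size factors from DESeq2 1.42.0, TMM over the 2 libraries, other filters, folds, priors and rounding, leaving out genes with shared 50-mers, and removing a GC and length trend. Some named genes are not reported here.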

Additional observations from a re-analysis of the deposited data

How the results depend on the processing

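Among the 264 named genes no called gene changed sign under the alternatives run for them, which were scaling, filter, prior, rounding, shared sequence and trend. This check had little room to fail, because called genes stood at least 2-fold from equality and a filter does not alter a ratio. The other folds were applied only to the numbers of genes called. Genes higher numbered 418 and genes lower 498 with no filter beyond 1 count, 25 and 72 with at least 5 CPM in either library, 49 and 67 at 4-fold, and 494 and 693 at 1.5-fold. The number of G2 and M phase genes called lower was 0 at 4-fold and 26 at 1.5-fold, and 9 by the 2-fold rule. The higher share of calls was 43.4%, and 25.8% with at least 5 CPM. Total counts moved the median of all genes to -0.03. List medians ran from -0.95 to -0.90 for G2 and M phase, -0.52 to -0.48 for S phase, -0.44 to -0.36 for collagens, 0.44 to 0.48 for interferon-stimulated genes and 0.26 to 0.31 for cholesterol genes. The metallothionein median was 0.30 with at least 5 CPM. That of the neuroendocrine genes was -0.42 with no filter beyond 1 count, where 6 of them entered. It was -0.11 for the 4 measured in the main comparison. Of 441 list medians under alternatives, 20 moved by over 0.1 or across 0. Of 2337 values of named genes, 39 changed sign close to 0, all in genes without a call, 5 crossed into a call (ANLN, SERPINB2, TOP2A and TPX2) and none out of one. No replicate could be left out. No paired analysis was possible because each group has 1 library. Depth limits the faint genes, where 25.6% of those under 2 CPM passed the 2-fold rule.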

Other observations

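Single members of other lists passed the 2-fold rule at low levels, where calls were common, and those named here were chosen after their values were seen. Higher with 3% PEGDA were NRG1, a ligand of ERBB receptors (1.10 and 3.82 CPM, 3.41-fold, interval 1.98 to 6.43), LGR5, a Wnt-linked receptor (1.93 and 4.26 CPM), the cytokine IL24 (0.129 and 1.03 CPM) and EGR2 (0.644 and 1.76 CPM). Lower was POU5F1 (1.16 and 0.367 CPM), which has several near copies in the genome.

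Abundant genes past 1.5-fold in the higher direction included HMOX1, which degrades heme (42.8 CPM in PF, 68.3 with 2% PEGDA, 125 with 3% and 61.9 in 2D), and TMSB4X, an actin-binding peptide (644, 592, 1007 and 668 CPM in the same order). Both were chosen after their values were seen, and for both PF+3%PEGDA was the highest of the 4 libraries. Also chosen after their values were seen were PTGS2, IGFBP7 and ANO1. PTGS2, the inducible cyclooxygenase, measured 10.3 CPM with 2% PEGDA and 16.4 with 3%. In the lower direction, IGFBP7 measured 19.8 and 10.2 CPM (1.94-fold, interval 1.59 to 2.39) beside 179 in 2D, and the chloride channel gene ANO1 83.2 and 51.1 CPM.

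By annotated type, 3.00% of 13041 protein-coding genes passed the 2-fold rule and 13.8% of 261 antisense genes.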
